A study of Zea mays with 20 samples.

Results

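The genes rough sheath2 (rs2, GRMZM2G403620) and indeterminate gametophyte1 (ig1, GRMZM2G118250) were followed across 20 RNA-seq libraries of maize tissues that gain or lose activity of the homeobox gene knotted1 (kn1). Both were chosen by gene ID as known repressors of KNOX genes in the leaf and not by a rule on their measured values, though earlier results of these data were known. They are 2 of the 39656 genes in the deposited count table. rs2 had at least 1309 counts and ig1 at least 59 counts in each library, so both passed the filter on low counts in every comparison.

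KNOX genes of class I, of which kn1 is the founding member, encode homeobox transcription factors that are on in shoot meristems and are switched off where a leaf begins to form. rs2 encodes a MYB transcription factor, the maize counterpart of the Arabidopsis gene AS1 (asymmetric leaves1), and ig1 encodes a LOB domain protein related to that of AS2 (asymmetric leaves2). In Arabidopsis these partners bind KNOX gene promoters together and recruit Polycomb repressive complex 2, which keeps the genes silent. In maize, loss of rs2 leaves patches of KNOX expression in leaves, and loss of ig1 disturbs leaf polarity, KNOX silencing and the embryo sac.

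The leaf groups, all of inbred B73, were 10-day-old seedlings with 0 (wild type), 1 (Kn1-N/+) or 2 (Kn1-N/Kn1-N) copies of the dominant gain-of-function allele Kn1-N, with 2 libraries each from a tube of young leaves 7 to 8 mm long. Loss of function was studied with kn1-e1/kn1-e1 homozygotes against siblings in field-grown tassel primordia (3 and 3 libraries, pools of 10), field-grown ear primordia (2 and 2 libraries, pools of 6 to 8) and apices with the shoot apical meristem (SAM) at 19 days (2 and 2 libraries, pools of 15). It is not settled whether these siblings were wild type, as their titles say, or kn1-e1/+, as their genotype entry says, and the design text allows both. Mutant primordia were harvested shorter than those of siblings (tassels 2 to 3 mm against 4 to 5.5 mm, ears 4 to 5 mm against 7 to 8 mm), so size and genotype cannot be told apart in tassel and ear. The SAM apices were trimmed to the youngest leaf primordia, so they hold leaf founder tissue as well as meristem.

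Libraries held 16068246 to 20722952 counts. Replicate pairs differed by 1.8 to 5.27 times counting noise (chi-square per degree of freedom), except the 2 sibling SAM libraries, which stood apart from each other at 11.7. The labels were checked with markers. In leaf libraries, 17 of 20 photosynthesis genes were at 1 CPM (read counts scaled to a common library size with TMM factors) or more. The 20 summed to 995 to 1246 CPM there, against 25.0 to 61.7 CPM in all other libraries. Of 10 meristem genes, wus1, wus2 and bd1 were at 0 in leaf, but 6 or 7 were at 1 CPM or more. The 9 other than kn1 summed to 291 to 295 CPM in wild-type leaf and 271 to 275 CPM in sibling SAM. The sum of this list thus did not mark meristem. Of 19 inflorescence genes, the floral and branching genes ra1, bd1 and zmm6 were at 0 in both SAM groups, but 7 were at 1 CPM or more there. The 19 summed to 447 to 465 CPM in SAM, against 167 to 180 CPM in leaf and 484 to 502 CPM in kn1-e1 ear. kn1 itself had 1 and 0 counts in wild-type leaf, 103 and 126 in heterozygous leaf and 162 and 223 in homozygous leaf, and its log2 fold change in kn1-e1 over sibling tissue was -2.12 ± 0.12 in tassel, -1.98 ± 0.06 in ear and -1.66 ± 0.13 in SAM. Every group therefore followed its labelled allele, and kn1-e1 tissue still held kn1 reads (194 to 1149 counts per library).

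Both repressors were transcribed in every tissue, with different tissue orders, as the bar plot of levels by group shows. rs2 was highest in ear primordia and lowest in young leaf. ig1 was highest in the apex and lowest in tassel. Levels of different genes are not set against each other here, since the counts are not scaled for transcript length.

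**Figure D1:**
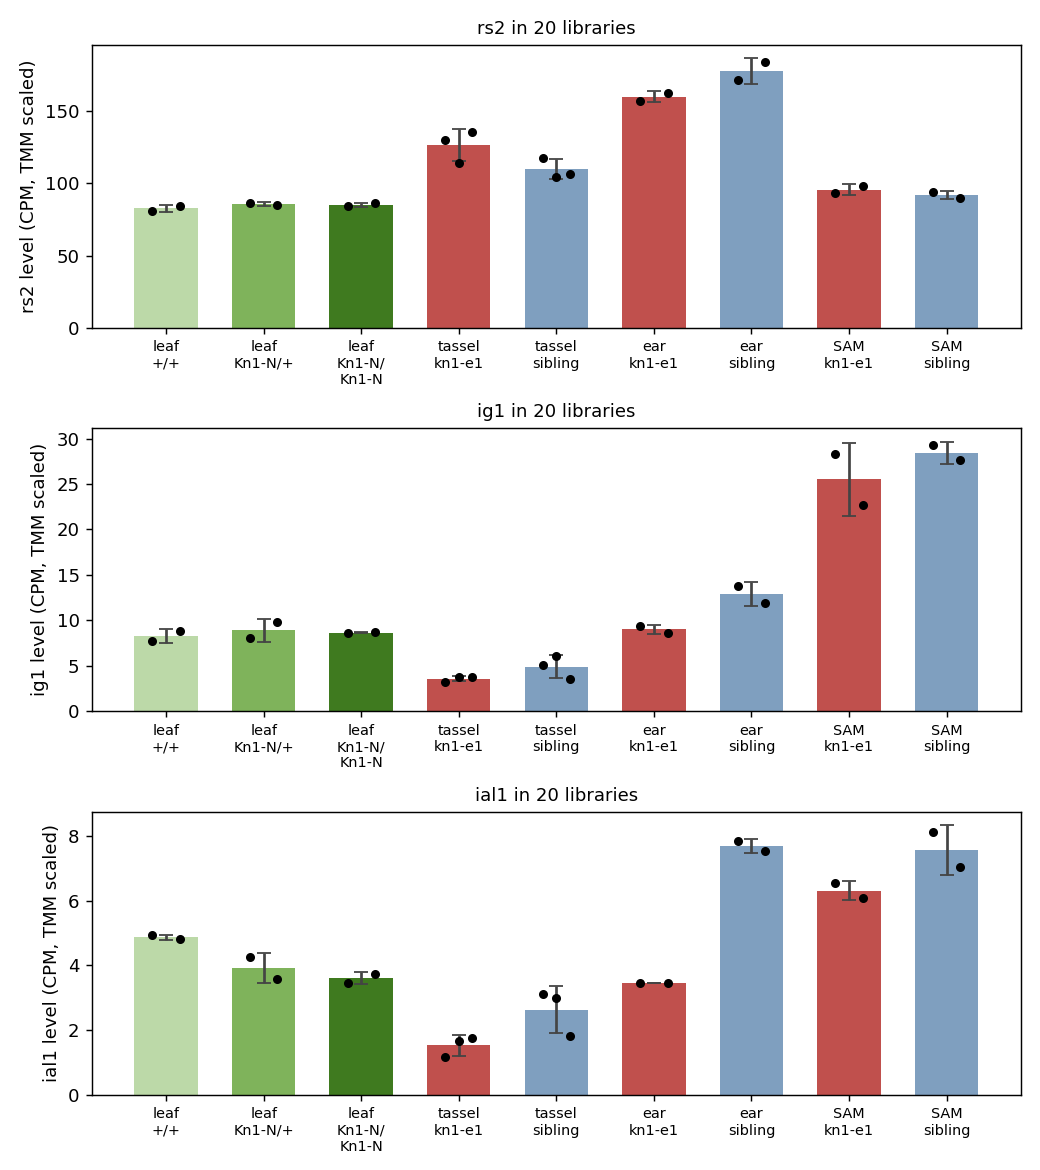
Levels of rs2, ig1 and ial1 in 9 groups (y axis, CPM with TMM scaling; bars are means, whiskers SD, dots single libraries; n = 3 in each tassel group and 2 elsewhere). rs2 peaks in ear, at 160 CPM in kn1-e1 and 178 CPM in siblings, ig1 peaks in SAM, at 25.5 CPM in kn1-e1 and 28.5 CPM in siblings, and ial1 is high in sibling ear and in both SAM groups.

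For rs2, wild-type leaf had 80.9 and 84.5 CPM, sibling tassels 118, 105 and 107 CPM, sibling ears 172 and 184 CPM, and sibling SAM 93.8 and 90.1 CPM. No library of one of these 4 tissues fell within the range of another. The share of all genes for which this holds was not computed, and many genes differ between these tissues (shares called below). In 1 edgeR quasi-likelihood fit of all 20 libraries, rs2 was 1.95 times (95% interval 1.75 to 2.17) as high in sibling ear as in sibling SAM (adjusted p = 2.9e-10, Benjamini-Hochberg over all genes tested; 48.8% of genes tested were called between these tissues). It was 1.2 times (1.09 to 1.33) as high in sibling tassel as in sibling SAM (adjusted p = 0.0022; 55.2% of genes called). The leaf was at 0.901 times the SAM level (0.809 to 1.01), which missed the threshold of 0.05 (adjusted p = 0.080; 72.8% called). Between inflorescences, sibling tassel was at 0.617 times the sibling ear level (0.562 to 0.679; adjusted p = 1.8e-08; 37.8% called). Tissue, age, growing site and plant family differ together in these comparisons and cannot be told apart, and in such bulk samples fewer cells of a type cannot be told apart from less RNA per cell.

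For ig1, wild-type leaf had 7.76 and 8.80 CPM, sibling tassels 5.11, 6.07 and 3.56 CPM, sibling ears 13.8 and 12 CPM, and sibling SAM 29.3 and 27.6 CPM. These 4 ranges did not overlap either (share over all genes not computed). From the lowest to the highest tissue they rise by a larger factor than those of rs2, though over fewer CPM. Relative to sibling SAM, ig1 was at 0.292 times in wild-type leaf (0.235 to 0.361; adjusted p = 2.8e-10), 0.174 times in sibling tassel (0.142 to 0.213; adjusted p = 7.3e-13) and 0.455 times in sibling ear (0.372 to 0.557; adjusted p = 6.0e-07) by the edgeR fit of all libraries. Sibling tassel was at 0.383 times the sibling ear level (0.307 to 0.477; adjusted p = 1.9e-07). Young leaf, the tissue in which repression of KNOX genes is best known, thus held neither the highest rs2 nor the highest ig1 level of the 4 tissues.

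Ordered by mean level, rs2 ran from sibling ear (178 ± 8.81 CPM, SD) over kn1-e1 ear (160 ± 3.84), kn1-e1 tassel (127 ± 11.1), sibling tassel (110 ± 6.90), kn1-e1 SAM (95.7 ± 3.8), sibling SAM (92.0 ± 2.63), heterozygous leaf (85.6 ± 1.32) and homozygous leaf (85.1 ± 1.51) to wild-type leaf (82.7 ± 2.54). Of the 8 steps between neighbours, 3 passed the edgeR threshold. These were kn1-e1 ear over kn1-e1 tassel (adjusted p = 0.00043), kn1-e1 tassel over sibling tassel (0.0498, at the edge of the threshold) and sibling tassel over kn1-e1 SAM (0.0106). The 3 leaf and 2 SAM groups formed a run in which no neighbours were called apart.

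The order for ig1 ran from sibling SAM (28.5 ± 1.21 CPM) over kn1-e1 SAM (25.5 ± 3.99), sibling ear (12.9 ± 1.32), kn1-e1 ear (8.99 ± 0.474), heterozygous leaf (8.90 ± 1.23), homozygous leaf (8.64 ± 0.0583), wild-type leaf (8.28 ± 0.739) and sibling tassel (4.91 ± 1.27) to kn1-e1 tassel (3.59 ± 0.295). The 3 steps that passed were kn1-e1 SAM over sibling ear (adjusted p = 5.9e-06), sibling ear over kn1-e1 ear (0.027) and wild-type leaf over sibling tassel (0.00031). The kn1-e1 ears therefore stood next to the 3 leaf groups in ig1 level and apart from their own sibling ears.

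The first genotype question was whether either repressor changed in leaves that express kn1 through Kn1-N. rs2 had 80.9 and 84.5 CPM with 0 copies of Kn1-N, 86.5 and 84.7 CPM with 1 copy and 84.0 and 86.1 CPM with 2 copies. ig1 had 7.76 and 8.80, 8.03 and 9.77, and 8.60 and 8.68 CPM in the same order of dose. The 3 genotypes overlapped for ig1. For rs2 both heterozygotes lay just above both wild types, and the homozygotes overlapped each of the other groups. With 2 libraries a group that separation says little, and the share of all genes that separate so was not computed.

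By edgeR, the log2 fold change of rs2 was 0.05 ± 0.06 (SE; 95% interval -0.08 to 0.18) in homozygous over wild-type leaf (adjusted p = 0.62) and 0.05 ± 0.06 (-0.08 to 0.18) in heterozygous over wild-type leaf (adjusted p = 0.89). That of ig1 was 0.07 ± 0.14 (-0.24 to 0.38; adjusted p = 0.78) and 0.10 ± 0.14 (-0.20 to 0.40; adjusted p = 0.90) in these comparisons. In homozygous over heterozygous leaf it was 0.00 ± 0.06 (-0.13 to 0.13; adjusted p = 0.99) for rs2 and -0.03 ± 0.14 (-0.33 to 0.27; adjusted p = 0.92) for ig1. The slope per copy of Kn1-N was 0.02 ± 0.03 (-0.04 to 0.09; adjusted p = 0.60) for rs2 and 0.04 ± 0.07 (-0.11 to 0.18; adjusted p = 0.77) for ig1. Neither gene was called in any of these 4 tests, by edgeR or by DESeq2, against 18.8% of all genes in homozygous over wild-type, 0.145% in heterozygous over wild-type, 4.75% in homozygous over heterozygous leaf and 18.4% per copy. The intervals bound a change from wild type to homozygotes to between 0.946 and 1.13 times for rs2 and between 0.849 and 1.30 times for ig1. The 2 leaf contrasts with wild type share those libraries.

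The KNOX genes that these repressors are known to keep off were read in the same leaves. kn1 (counts above) was 406 times as high in homozygous as in wild-type leaf from summed counts (exact 95% interval 72.5 to 16094, counting error only, resting on 1 wild-type count). lg3 (liguleless3) had 4 and 1 counts in wild type, 80 and 72 in heterozygotes and 81 and 115 in homozygotes, and lg4 (liguleless4) had 1 and 1, 39 and 47, and 40 and 43. Both are class I KNOX genes known from dominant mutants that express them in the leaf. Their fitted log2 fold changes in homozygous over wild-type leaf were 5.31 ± 0.37 for lg3 (adjusted p = 2.1e-06, edgeR) and 5.30 ± 0.51 for lg4 (adjusted p = 2.4e-05), and a ratio of summed counts put lg4 at 43.8 times (11.8 to 368). These 3 of the 5 KNOX genes that passed the low-count filter were called higher in homozygotes and in heterozygotes (9.16% and 0.127% of all genes were called higher). They passed that filter through the Kn1-N libraries alone, so the count is a description and no support.

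Other KNOX genes on the list were at or near 0 in leaf, except those of class II. gnarley1, knox3 and knox8 had 0 to 3 counts in every leaf library and lg4b 0 to 8. The class II genes knox6 and knox7, which belong to a KNOX branch expressed widely in differentiated organs, had log2 fold changes of 0.02 ± 0.09 and 0.09 ± 0.08 in homozygous over wild-type leaf (adjusted p = 0.90 and 0.47). kn1, lg3 and lg4 in homozygous leaf reached 5.60%, 3.74% and 5.90% of their own highest group mean, all of which were inflorescence groups.

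**Figure D2:**
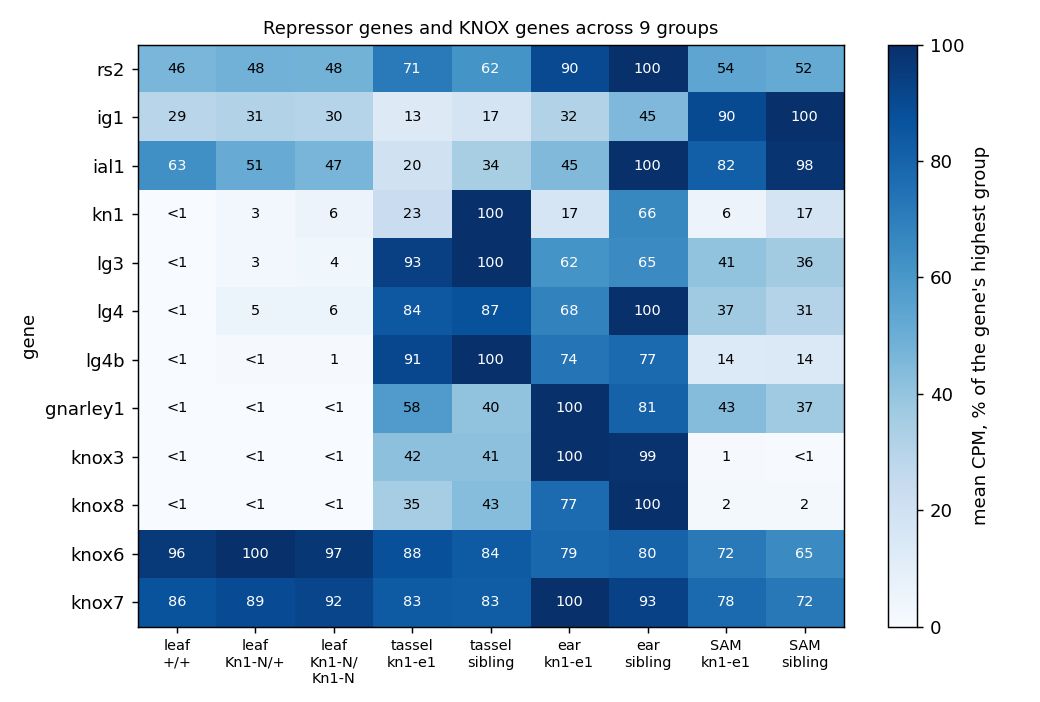
Mean level of each gene (rows) in 9 groups (columns) as a percentage of that gene's highest group mean, with darker cells for higher values and "<1" for values under 1%. rs2 and ig1 are on in leaf at 46 to 48% and 29 to 31% of their maximum, while kn1, lg3 and lg4 are under 1% in wild-type leaf and at 2.60 to 5.90% with Kn1-N.

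In kn1-e1 tassels, rs2 had 130, 114 and 136 CPM, against 118, 105 and 107 CPM in sibling tassels. The groups overlapped, since 1 mutant tassel lay below the highest sibling. The log2 fold change was 0.21 ± 0.06 (0.07 to 0.34), or 1.15 times (1.05 to 1.27), and missed the threshold (unadjusted p = 0.0069, adjusted p = 0.071 by edgeR; 7.90% of genes were called in this comparison). The call was borderline: the same value passed with all genes kept (adjusted p = 0.029), by DESeq2 (0.048) and without kn1-e1 tassel library 2 (log2 fold change 0.27, adjusted p = 0.0016). Over the 6 edgeR fits that left out 1 library, the log2 fold change went down to 0.15 and the adjusted p up to 0.25.

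In kn1-e1 tassels, ig1 had 3.25, 3.73 and 3.79 CPM, against 5.11, 6.07 and 3.56 CPM in sibling tassels. These values come from 59 to 116 counts per library, and a count of 59 has an exact 95% interval of 44.9 to 76.1 (counting error only). Sibling library 3 lay among the mutants, and the other sibling libraries lay above all of them. The log2 fold change was -0.45 ± 0.19 (-0.86 to -0.05), or 0.730 times (0.552 to 0.965), and missed the threshold (unadjusted p = 0.030, adjusted p = 0.17 by edgeR). Without sibling tassel library 3, the low one, it was -0.64 (adjusted p = 0.045), and without sibling tassel library 2 it was -0.27 (adjusted p = 0.51).

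In ears, mutants and siblings did not overlap for either gene. With 2 libraries a group this says little, and the share of all genes that separate so was not computed. rs2 had 157 and 163 CPM in kn1-e1 ears, against 172 and 184 CPM in sibling ears, so both mutants were below both siblings. The log2 fold change of rs2 was -0.15 ± 0.05 (-0.27 to -0.04), or 0.899 times (0.830 to 0.974), which missed the threshold (unadjusted p = 0.013, adjusted p = 0.063 by edgeR), with 18.6% of genes called in ear. With all genes kept it passed (adjusted p = 0.042). It also passed without kn1-e1 ear library 1 (-0.13, adjusted p = 0.044) and without kn1-e1 ear library 2 (-0.18, adjusted p = 0.0032), and it was -0.11 without sibling ear library 2 (adjusted p = 0.49).

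ig1 fell in kn1-e1 ears. It had 9.33 and 8.66 CPM there (203 and 175 counts), against 13.8 and 12 CPM in sibling ears (231 and 233 counts). The log2 fold change was -0.51 ± 0.12 (-0.78 to -0.25), or 0.700 times (0.583 to 0.841), with an adjusted p of 0.0105 by edgeR. This was the only change of rs2 or ig1 called in the 6 genotype comparisons, in a tissue where 10.4% of all genes were called lower. DESeq2 gave the same size without the call (-0.52, adjusted p = 0.079), and the call was also lost without sibling ear library 1 (-0.41, adjusted p = 0.14).

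Markers of other tissues moved in the same ears. The summed level of the 20 photosynthesis genes was 51.7 to 52.5 CPM in kn1-e1 ears and 25.7 to 27.4 CPM in sibling ears (4 of the genes were at 0 in both). The 19 inflorescence genes summed to 484 to 502 CPM in kn1-e1 ears and 672 to 687 CPM in sibling ears. Among them the floral MADS-box genes zmm6 (261 and 226 counts in kn1-e1 ears, 918 and 960 in sibling ears) and ZAG1 (100 and 74 counts, against 321 and 316) were lower in the mutants. From the same list, ra1 was higher in kn1-e1 ears (7.26 and 7.87 CPM, against 5.93 and 5.75 in sibling ears). The zap1 values lay close together (135 and 146 CPM, against 137 and 136). The 8 YABBY genes, which mark organ primordia, summed to 181 to 189 CPM in kn1-e1 ears and 269 to 287 CPM in sibling ears. The 9 meristem genes other than kn1 summed to 220 to 231 CPM in kn1-e1 ears and 251 to 253 CPM in sibling ears. That sum is no measure of meristem here, since it was 291 to 295 CPM in wild-type leaf. The part of these differences in the lower ig1 level was not tested.

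In kn1-e1 SAM, rs2 had 93.0 and 98.4 CPM, against 93.8 and 90.1 CPM in sibling SAM. ig1 had 28.3 and 22.7 CPM, against 29.3 and 27.6 CPM. Both pairs of groups overlapped. The log2 fold change was 0.05 ± 0.11 (-0.18 to 0.28; adjusted p = 0.98 by edgeR) for rs2 and -0.17 ± 0.12 (-0.43 to 0.10; adjusted p = 0.95) for ig1, where 0.164% of genes were called. Without sibling SAM library 2, 1 of the 2 that stood apart, the values were 0.03 (adjusted p = 0.91) for rs2 and -0.21 (adjusted p = 0.28) for ig1, and without sibling SAM library 1 they were 0.08 (0.92) and -0.12 (0.88). Without kn1-e1 SAM library 1, ig1 was at -0.33, and without kn1-e1 SAM library 2 at -0.01 (adjusted p = 1.00 in both). For rs2 these values were 0.09 and 0.01 (adjusted p = 1.00 in both). The intervals allow rs2 at 0.885 to 1.22 times and ig1 at 0.742 to 1.07 times the sibling level.

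**Figure D3:**
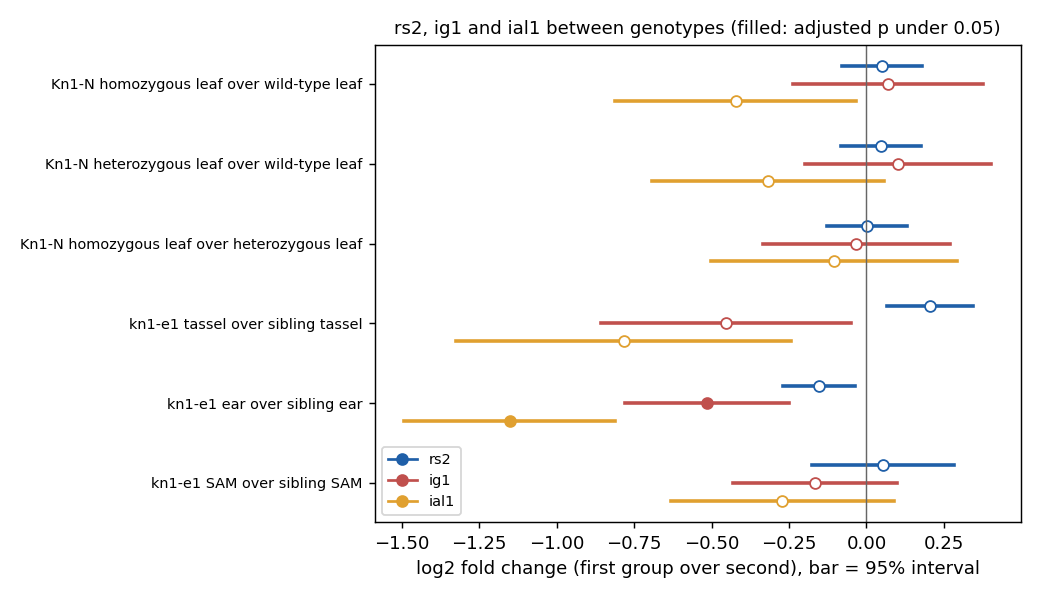
Log2 fold change (x axis, first group over second) of rs2, ig1 and ial1 in 6 genotype comparisons, with bars for 95% intervals and filled points where the adjusted p was under 0.05. ig1 (-0.51) and ial1 (-1.15) are called in ear alone, and all leaf intervals of rs2 lie within -0.13 and 0.18.

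Whether the kn1-e1 effect differed between tissues was tested with edgeR on the 14 libraries from kn1-e1 and sibling plants together. For rs2 the effect in ear minus that in tassel was -0.37 ± 0.10 on the log2 scale (-0.59 to -0.16; adjusted p = 0.042), with 5.22% of genes called for this difference. The effect in SAM minus tassel was -0.15 ± 0.10 (adjusted p = 0.59; 1.18% called) and that in SAM minus ear 0.23 ± 0.11 (adjusted p = 0.26; 5.47% called). For ig1 none of the 3 differences passed. They were -0.08 ± 0.24 for ear minus tassel (-0.58 to 0.43; adjusted p = 0.90), 0.29 ± 0.22 for SAM minus tassel (-0.18 to 0.76; adjusted p = 0.62) and 0.37 ± 0.21 for SAM minus ear (-0.07 to 0.81; adjusted p = 0.33). The rs2 difference lost its call in 8 of the 10 fits that left out 1 tassel or ear library, where it ranged from -0.44 to -0.32.

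The kn1-e1 difference was also averaged over tassel, ear and SAM with each tissue given equal weight, and tested by exact permutation of genotypes within tissues (two-sided, 720 arrangements, smallest possible p 0.00278). For ig1 the mean difference in log2 CPM was -0.36 (exact p = 0.0194, Benjamini-Hochberg adjusted p = 0.026 over the 4 such tests computed). It was negative in all 3 tissues, at -0.41 in tassel, -0.51 in ear and -0.17 in SAM. For rs2 it was 0.04 (exact p = 0.51), with 0.21 in tassel, -0.15 in ear and 0.06 in SAM. Leaving out any 1 of the 14 libraries left the ig1 mean between -0.43 and -0.31. Size and genotype cannot be told apart in the tassel and ear parts of these means.

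The ratio of rs2 to ig1 counts within a library needs no scaling to library size, and its value is compared between libraries alone. In tassel it was 40.02, 30.7 and 35.9 in kn1-e1, against 23.0, 17.3 and 30.01 in siblings. In ear it was 16.9 and 18.8 in kn1-e1, against 12.4 and 15.4 in siblings. In SAM it was 3.28 and 4.34 in kn1-e1, against 3.20 and 3.26 in siblings. Within each tissue every kn1-e1 library lay above every sibling library, narrowly so in tassel (30.7 over 30.01) and SAM (3.28 over 3.26). How often other pairs of genes separate in this way was not computed. In leaf the ratio was 10.4 and 9.60 in wild type, 10.8 and 8.67 in heterozygotes and 9.77 and 9.92 in homozygotes, with all genotypes overlapping. Group means ran from 3.23 in sibling SAM to 35.5 in kn1-e1 tassel, and the leaf and SAM libraries lay apart from all others, while the ear and tassel ranges overlapped.

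**Figure D4:**
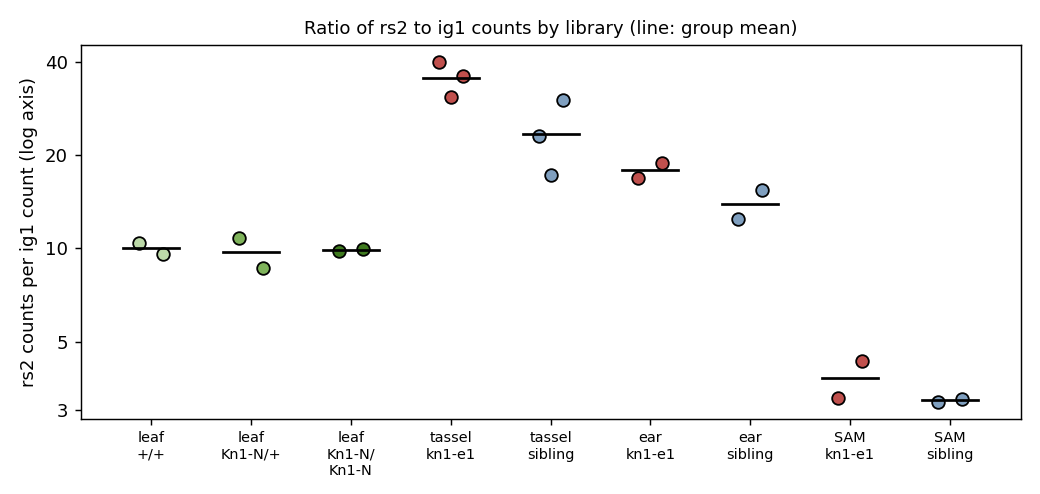
Counts of rs2 per count of ig1 in each of 20 libraries (y axis, log scale; dots are libraries, lines group means). Values lie between 8.67 and 10.8 in leaf, between 3.20 and 4.34 in SAM and between 17.3 and 40.02 in tassel, with kn1-e1 above siblings within each of the 3 tissues.

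The gene ial1 (GRMZM2G133806, indeterminate gametophyte1-like1), the close relative of ig1, was read beside it. How reads that match both were counted is not given in the sources used here. ial1 fell in kn1-e1 ears, where it had 3.45 and 3.46 CPM, against 7.84 and 7.55 CPM in sibling ears. That is a log2 fold change of -1.15 ± 0.16 (-1.49 to -0.81), or 0.450 times (0.356 to 0.569), with an adjusted p of 0.00028 by edgeR. In kn1-e1 tassels it had 1.16, 1.67 and 1.74 CPM, against 3.11, 2.98 and 1.8 CPM in siblings (-0.78 ± 0.25, adjusted p = 0.079), and in SAM 6.53 and 6.09 CPM, against 8.11 and 7.02 CPM (-0.27 ± 0.17, adjusted p = 0.95). Sibling tassel library 3 was the lowest of its group for ial1 as well as for ig1. Averaged over the 3 tissues as above, the kn1-e1 difference of ial1 was -0.71. Its exact p was 0.00278, the smallest that these arrangements can give (adjusted p = 0.0056 over the 4 permutation tests).

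In leaf, ial1 had 4.92 and 4.82 CPM with 0 copies of Kn1-N, 4.25 and 3.58 CPM with 1 copy and 3.46 and 3.74 CPM with 2 copies. Both Kn1-N groups lay below wild type, but neither difference passed. With 2 libraries a group such a separation says little, and its share over all genes was not computed. The log2 fold change was -0.42 ± 0.18 in homozygous over wild-type leaf (-0.81 to -0.03; adjusted p = 0.12) and -0.32 ± 0.17 in heterozygous over wild-type leaf (-0.69 to 0.06; adjusted p = 0.75). The homozygous over heterozygous value was -0.10 ± 0.18 (adjusted p = 0.80). Over all 20 libraries the log2 levels of ig1 and ial1 had a Pearson r of 0.90, and over the 9 group means 0.89, whereas rs2 and ig1 had -0.19 and -0.16. These correlations describe libraries that share tissues and are not tests.

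Of the 10 LOB domain genes on the list, which includes ig1 and ial1, 6 passed the low-count filter in ear and 5 in each of the other comparisons. In ear LOB15 rose (2.65 ± 0.22, adjusted p = 6.6e-06, edgeR), while ig1 and ial1 fell (8.21% of all genes rose and 10.4% fell). By edgeR, 0 of the 5 tested were called in the leaf comparisons, in tassel and in SAM, where 0 to 2 had an unadjusted p under 0.05. The shares of all genes called there were 18.8% in homozygous over wild-type, 0.145% in heterozygous over wild-type and 4.75% in homozygous over heterozygous leaf, 7.90% in tassel and 0.164% in SAM, so 0 of so few genes does not set the list apart. The list median in ear was -0.03, beside 0.01 over all genes tested. In tassel the median of the 5 tested was the value of ig1 itself (-0.45, not called), beside 0.01. It is thus no separate background for ig1.

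Polycomb repressive complex 2, through which the Arabidopsis partners act, was represented by 6 genes, of which 5 passed the filter in each comparison. mez1, which encodes a histone methyltransferase subunit of the complex, rose in homozygous over wild-type leaf (0.25 ± 0.06, adjusted p = 0.016), as did 9.16% of all genes. That call was lost in 3 of the 4 fits that left out 1 homozygous or wild-type library. By edgeR, 0 of the 5 tested were called in each of the other 5 comparisons, where 0 to 3 had an unadjusted p under 0.05. The share of all genes called was 18.6% in ear, 7.90% in tassel and 0.164% in SAM, with 0.145% in heterozygous over wild-type and 4.75% in homozygous over heterozygous leaf. List medians ran from -0.03 in SAM and in tassel to 0.13 in ear, beside medians over all genes within 0.01 of 0.

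Leaf polarity genes, which specify the upper and lower leaf faces, gave more calls. In homozygous over wild-type leaf 10 of the 18 tested rose and 1 fell (9.16% and 9.59% of all genes did), among them yabby15 (1.30 ± 0.07, adjusted p = 3.5e-07), ARF3 (0.37 ± 0.06, adjusted p = 0.0011) and YAB3 (-0.69 ± 0.12, adjusted p = 0.0019). The list median was 0.38, beside 0.01 over all genes. Without homozygous leaf library 2, ARF3 was at the threshold (0.30, adjusted p = 0.0503). In heterozygous over wild-type leaf yabby15 alone of the 18 rose (0.91 ± 0.07, adjusted p = 6.4e-05, edgeR), where 0.127% of all genes did. In homozygous over heterozygous leaf 3 rose and 1 fell (1.64% and 3.12% of all genes did).

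In kn1-e1 tassels 6 of 17 tested polarity genes fell and 0 rose (5.55% and 2.34% of all genes did), led by yabby15 (-0.42 ± 0.06, adjusted p = 0.00063), yab14 (-0.63 ± 0.11, adjusted p = 0.0029) and yab9 (-0.43 ± 0.11, adjusted p = 0.025). The yab9 call was lost in 3 of the 6 fits that left out 1 library (adjusted p up to 0.11). In kn1-e1 ears 11 of 19 fell and 2 rose (10.4% and 8.21% of all genes did), with yab14 at -0.70 ± 0.06 (adjusted p = 1.2e-05), YAB5 at -1.15 ± 0.11 (adjusted p = 1.9e-05) and yabby15 at -0.44 ± 0.06 (adjusted p = 0.00023). The list median was -0.11 in tassel and -0.32 in ear, beside 0.01 over all genes in each. In SAM 0 of 20 were called by edgeR, where 0.164% of all genes were called. An unadjusted p under 0.05 was found for 0 of the 20, against 981 of the 20748 genes tested. With shares so low, 0 of 20 does not set the list apart.

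Of the 10 KNOX genes tested in kn1-e1 tissue, kn1 included, 1 rose and 2 fell in tassel (2.34% and 5.55% of all genes did), and 1 rose and 3 fell in ear (8.21% and 10.4% of all genes did). In tassel gnarley1 rose (0.52 ± 0.05, adjusted p = 6.4e-05) and knox8 fell (-0.31 ± 0.08, adjusted p = 0.041), with 7 others of the 10 not called. The knox8 call in tassel was lost by DESeq2 (adjusted p = 0.094) and in 5 of the 6 fits that left out 1 library (adjusted p up to 0.18). In ear gnarley1 rose (0.31 ± 0.07, adjusted p = 0.0055), while lg4 (-0.55 ± 0.08, adjusted p = 0.00041) and knox8 (-0.37 ± 0.07, adjusted p = 0.0037) fell. Without sibling ear library 1, gnarley1 (0.26, adjusted p = 0.12) and knox8 (-0.30, adjusted p = 0.10) were not called in ear. In SAM kn1 alone of the 10 was called, and it fell (0.120% of all genes did). The median of the list was -0.02 in tassel, -0.07 in ear and 0.15 in SAM, beside 0.01, 0.01 and 0.00 over all genes.

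Among 16936 genes with a mean of at least 5 CPM, the named genes whose log2 level over the 20 libraries ran most like that of rs2 were tga1 (teosinte glume architecture1, an SBP-box transcription factor, Pearson r = 0.979), D8 (dwarf8, a DELLA repressor of gibberellin signalling, 0.973) and TPS5 (0.966). Group means of tga1 ran from 1.96 CPM in homozygous leaf to 58.6 CPM in sibling ear, a larger factor than for rs2. Those of D8 ran from 101 CPM in heterozygous leaf to 331 CPM in kn1-e1 ear. For ig1 they were yab10, a YABBY gene (r = 0.964), Mlo5, of the MLO family of membrane proteins (0.953), and nfc104 (0.942). yab10 had 57.6 and 57.0 CPM as means of kn1-e1 and sibling SAM, and 18.4 and 26.5 CPM as means of kn1-e1 and sibling ear. These values describe likeness over libraries that fall into 4 tissues, and are not tests.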

How the data were processed

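Per the labels' protocols, Trizol was used for total RNA and an unstranded Illumina TruSeq RNA kit for the libraries, so a gene and an overlapping antisense gene share their reads. Per the submitters' processing notes, the tools were CASAVA 1.8, TopHat 1.2.0, HTSeq and DESeq 1.4.1, and their roles and the genome build are not given in the sources used here. Deposited by the authors was a table of raw counts per gene, in which 8181 of 39656 genes were at 0 in all 20 libraries. Gene names came from the Zm-B73-REFERENCE-NAM-5.0 table (18775 IDs matched), and no coordinates or sequences were used.

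Quasi-likelihood F tests were run in edgeR 4.0.16 (R 4.3.3) with TMM scaling and filterByExpr (min.count 10, min.total.count 15). Leaf, tassel, ear and SAM had a fit each, with 3, 4, 2 and 2 residual degrees of freedom. The fit over all 20 libraries had 11 and that over 14 had 8. Genes were called at an adjusted p under 0.05 over all genes tested. Standard errors were derived from the F statistic and are approximate. The series design calls the replicates biological. Permutations used log2 CPM with a prior count of 2. Of 4 such tests computed, the one on the ratio of rs2 to ig1 counts is given as values only. DESeq2 1.42.0, other scalings, no filter, a replicate block and leaving out each library were alternatives. The fits were checked on simulated data.

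The members, gene lists and tests were chosen with earlier results of these data known. Named were rs2, ig1, kn1, KNOX genes, ial1, up to 3 called genes with the smallest p per comparison from the LOB domain, polarity and Polycomb lists, and the 3 named genes most like each member. The authors' own comparison tables were not used here. The KNOX list counts include 1 gene that is not reported by itself here.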

Additional observations from a re-analysis of the deposited data

Results flagged for a closer look

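In the fit of 14 libraries the kn1-e1 effect on rs2 was lower in ear than in tassel by a log2 difference of -0.37 ± 0.10 (-0.59 to -0.16; edgeR interaction contrast, adjusted p = 0.042). The call was lost in 8 of 10 fits that left out 1 tassel or ear library (adjusted p = 0.011 to 0.21 over the 10), with library totals (0.090) and with the replicate block (0.077). Fitted within each tissue, the effect was -0.15 in ear (both mutants below both siblings) and 0.21 in tassel (2 of 3 mutants above all siblings), and neither passed the threshold alone. The summed level of the 20 photosynthesis genes was 51.7 to 52.5 CPM in kn1-e1 ears and 25.7 to 27.4 CPM in sibling ears, and 48.1 to 61.7 CPM in kn1-e1 tassels and 55.7 to 59.6 CPM in sibling tassels. The part of this in the rs2 difference was not tested.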

How the results depend on the processing

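With 2 or 3 libraries a group, an adjusted p near 0.05 turned on the setting for rs2. In tassel its log2 fold change passed with no low-count filter (0.21), by DESeq2 (0.21), in 1 fit of all 20 libraries (0.20) and with a replicate block (0.20, adjusted p = 0.020). In ear it passed with no filter (-0.15). The ear minus tassel difference of rs2 lost its call with library totals (-0.32, adjusted p = 0.090) and with the replicate block (-0.37, adjusted p = 0.077). Wild-type leaf over SAM passed for rs2 with library totals (-0.26), which shift the median of all genes by -0.11 there. The homozygous over heterozygous value of rs2 changed sign around 0 with library totals (-0.026) and in the fit of 20 libraries (-0.0061). ig1 in ear lost its call by DESeq2 (-0.52). The cause was not tested.

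Numbers of genes called by DESeq2 were 2397 in homozygous over wild-type leaf (4139 by edgeR), 612 in homozygous over heterozygous leaf (1049) and 1846 in ear (3955). In SAM, edgeR called 34 genes, against 111 with no filter, 72 with the replicate block and 64 in the fit of 20 libraries. Same-numbered libraries of different genotypes had residual correlations from -0.125 in SAM to 0.075 in leaf, and nothing in the labels ties the numbers, so they were not treated as pairs. The block changed no other call of rs2 or ig1.

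Leaving out 1 library at a time gave ranges of -0.017 to 0.16 for ig1 in homozygous over wild-type leaf, -0.048 to 0.24 in heterozygous over wild-type leaf, -0.17 to 0.11 in homozygous over heterozygous leaf and -0.012 to 0.063 per copy. For rs2 in homozygous over heterozygous leaf the range was -0.021 to 0.015, and for ial1 there -0.22 to 0.022. In kn1-e1 over sibling tissue it was 0.15 to 0.27 (rs2) and -0.64 to -0.27 (ig1) in tassel, and -0.20 to -0.11 (rs2) and -0.62 to -0.41 (ig1) in ear. The ear minus tassel difference was -0.44 to -0.32 for rs2 (adjusted p = 0.011 to 0.21) and -0.24 to 0.12 for ig1. Genes called ranged from 1061 to 2197 in homozygous over wild-type, 8 to 628 in heterozygous over wild-type and 166 to 3105 in homozygous over heterozygous leaf, 884 to 2228 in tassel, 1167 to 5898 in ear and 48 to 1746 in SAM. Between 1 and 3 of the neighbouring rs2 levels were called apart. Apart from leaving out a library, 146 of 157 alternative values of the tested main results kept direction and side of the threshold (6 gained a call, 3 lost it and 2 changed sign, as given above), and 40 of 46 alternative counts stayed within 1.5 times. The order of levels and the ial1 values were examined under these settings after the data were seen.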
